A study of Mus musculus with 6 samples.

Results

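The imprinted genes Kcnq1ot1, Peg13, H19, Igf2, Peg3, Meg3, Mest, Grb10, Igf2r and Plagl1 were followed in mBMSCs, the marrow stromal cells of the mouse that can become bone, fat or cartilage cells. The 10 genes were matched by symbol, and 9 of them were found among the 22030 genes of the count table; Meg3 was not analysed here. The 10 genes were chosen by their values in the siRIOK3 and siNC libraries, that is by their levels and fold changes, so their difference between the groups is described below with no p-value, and how many of them the fit over all genes called is given only beside the share of all genes called. After the filter on low counts 7 of the 10 genes were among the 13067 genes that entered the fit; H19 and Mest fell below it.

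The study compared 3 siRIOK3 libraries, whose genotype label is RIOK3 knockdown, with 3 siNC libraries, whose genotype label is WT. RIOK3 belongs to the RIO kinases, an atypical kinase family, and the study asked about its role in the formation of bone cells from mBMSCs. The design text speaks of stable lines made with lentivirus and also of a knockout, while the titles begin with si, so the agent is not settled by the labels. The labels name no mouse strain, age, passage, medium or harvest day.

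Imprinted genes are transcribed mainly from the chromosome inherited from a single parent. The choice of parent is set by DNA methylation laid down in the germ line at imprinting control regions. After fertilisation the KRAB zinc finger proteins ZFP57 and ZFP445, with TRIM28 and DNMT1, keep that methylation in place. Many of these genes act on growth: paternally expressed genes such as Igf2 tend to promote it, and maternally expressed genes such as Igf2r, Grb10 and Cdkn1c tend to restrain it. The counts do not separate the parental alleles, so the loss or gain of an imprint is not measured in these data. In bulk RNA, fewer cells of a type and less RNA per cell cannot be told apart.

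The libraries held 28327612 to 30517261 counts in siRIOK3 and 31089006 to 32569544 counts in siNC. Riok3 had 1034, 1048 and 1155 counts in siRIOK3 libraries 1, 2 and 3, against 4266, 5365 and 4022 counts in siNC libraries 1, 2 and 3. Of the 13067 tested genes, 48% passed an adjusted p under 0.05 in edgeR's quasi-likelihood test, 21.1% higher and 26.8% lower in siRIOK3. The lower share of the called genes was 56.0% with TMM scaling, 43.8% with upper-quartile factors and 39.7% with library totals alone. Over the tested genes the log2 fold changes had a median of 0.01 with TMM scaling, 0.21 with upper-quartile factors and 0.26 with library totals. Over all tested genes the log2 fold change followed the GC content of the transcript (Spearman's rho 0.70 across genes, which are not independent replicates). Library siNC 2 stood apart, with a Spearman correlation of 0.963 with siNC 1 and 0.968 with siNC 3, whereas siNC 1 and siNC 3 reached 0.996 and the siRIOK3 pairs 0.996 to 0.997. Values with the GC trend removed are therefore given beside most results, and values without siNC 2 beside some of them. All 12 stromal markers were in the table, with a summed level of 460 to 485 CPM (counts scaled by TMM library size, the level used throughout) in siRIOK3 and 637 to 761 CPM in siNC. Of the haematopoietic markers 8 of 12 were in the table, and they summed to 46.6 to 51.8 CPM in siRIOK3 and 26.7 to 43.3 CPM in siNC, higher in each siRIOK3 library. Most of that sum was Cd68, a lysosomal protein of macrophages that other cells also make, and the other markers summed to 1.26 to 1.58 CPM in siRIOK3 and 1.38 to 2.44 CPM in siNC. Ptprc, the pan-leukocyte antigen CD45, had 1, 0 and 0 counts in siRIOK3 and 3, 0 and 3 counts in siNC. The 5 of 6 endothelial markers in the table summed to 14.7 to 16.3 CPM in siRIOK3 and 7.23 to 10.8 CPM in siNC. The part of these markers in the results below was not tested. No label says whether the libraries are separate cultures, so p-values reflect only how far these samples scatter, which may be technical scatter.

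Promoter windows of 300 bases, from 250 bases before to 50 bases after the start, were taken from RefSeq on GRCm38.p6. Of the 10 genes 8 had such a window, 15 windows in all, some of them overlapping. The windows of 3 genes are shown: Kcnq1ot1, which had the largest fold difference of the 7 genes without correction for composition, Plagl1, whose RNA was also lower in siRIOK3, and Igf2r, which had the highest level. Capitals mark CCAAT or its reverse complement ATTGG, the box bound by the factor NF-Y, and TGCCGC or its reverse complement GCGGCA, the hexamer that ZFP57 binds when its CpG is methylated. The 2 motifs were searched on both strands and share no bases in these windows.
Kcnq1ot1, chr7:143296498-143296797, minus strand: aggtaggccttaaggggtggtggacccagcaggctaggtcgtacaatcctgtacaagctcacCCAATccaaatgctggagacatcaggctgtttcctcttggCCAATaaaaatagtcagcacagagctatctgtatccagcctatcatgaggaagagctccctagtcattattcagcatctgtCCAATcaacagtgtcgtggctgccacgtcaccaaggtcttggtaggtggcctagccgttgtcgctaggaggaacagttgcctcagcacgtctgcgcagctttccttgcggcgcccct
Plagl1, chr10:13090582-13090881, plus strand: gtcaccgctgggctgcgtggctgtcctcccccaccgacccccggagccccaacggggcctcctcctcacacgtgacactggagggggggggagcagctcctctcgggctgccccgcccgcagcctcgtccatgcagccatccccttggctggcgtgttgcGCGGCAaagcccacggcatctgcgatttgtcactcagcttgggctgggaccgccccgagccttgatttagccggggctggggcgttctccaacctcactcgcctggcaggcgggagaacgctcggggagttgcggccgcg
Igf2r, chr17:12769657-12769956, minus strand: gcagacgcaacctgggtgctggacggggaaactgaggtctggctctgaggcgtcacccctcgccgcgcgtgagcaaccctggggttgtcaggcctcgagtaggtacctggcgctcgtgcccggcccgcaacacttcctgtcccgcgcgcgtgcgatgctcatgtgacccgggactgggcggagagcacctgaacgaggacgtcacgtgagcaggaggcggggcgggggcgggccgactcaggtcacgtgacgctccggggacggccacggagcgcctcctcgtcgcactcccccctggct

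The Kcnq1ot1 window held 3 CCAAT boxes, 0 hexamers and 9 CpG sites. The Plagl1 window held 1 hexamer, 0 CCAAT boxes and 26 CpG sites. The Igf2r window held neither motif and 34 CpG sites. Of all 32851 RefSeq windows of this length 37.4% held at least 1 CCAAT box, 3.37% held 3 or more, and 11.6% held the hexamer, with a median of 7 CpG sites per window. Of the 15 windows of the listed genes 6 held the hexamer, in 5 of the 8 genes, and 4 held the CCAAT box, in 4 of the 8 genes. A match describes the letters in the window and is not evidence that a factor binds there.

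Kcnq1ot1 was lower in siRIOK3, with the largest fold difference of the 7 genes that entered the fit when no composition trend was removed. With the trends on GC, adenine and length removed Peg13 was slightly further from 0 (1.78, against -1.72 for Kcnq1ot1). How well the length trend fits a transcript as long as that of Kcnq1ot1 was not checked. This long noncoding RNA (ENSMUSG00000101609.3, chromosome 7) is transcribed from the paternal copy of an intron of Kcnq1, on the strand opposite to Kcnq1, and is known to silence neighbouring genes on the same chromosome. It had 14, 8 and 9 counts in siRIOK3 libraries 1, 2 and 3, against 501, 281 and 323 counts in siNC libraries 1, 2 and 3. Scaled by library, its level was 0.435, 0.240 and 0.290 CPM in siRIOK3 and 16.8, 10.1 and 10.9 CPM in siNC. Every siRIOK3 library lay below every siNC library, and siNC 2 lay close to siNC 3. The means were 0.322 ± 0.101 CPM in siRIOK3 and 12.6 ± 3.67 CPM in siNC (SD, n = 3 each). The log2 fold change was -5.28 (SE 0.330), which is 38.7-fold lower in siRIOK3.

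The size of the Kcnq1ot1 difference moved with the correction for sequence composition, while its sign stayed negative, at -5.55 to -1.72 over 19 alternative fits of the counts. The transcript used for the correction is 93092 bases long with a GC content of 40.3%, and the decile of tested genes with similar GC content had a median log2 fold change of -1.97. The Kcnq1ot1 log2 fold change was -3.33 (SE 0.261) with the GC trend removed, and with the trends on GC, adenine and length removed it was -1.72 (SE 0.382). How many tested genes have a transcript near 93092 bases was not counted, so the value with length removed is uncertain. Without siNC 2 the Kcnq1ot1 log2 fold change was -5.41 (SE 0.255). Kcnq1, the potassium channel gene that contains it, had 4, 4 and 0 counts in siRIOK3 and 0, 1 and 2 counts in siNC. No source used here gives the strand setting of the counting, and the Kcnq1 counts were far below the Kcnq1ot1 counts of siNC.

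**Figure D1:**
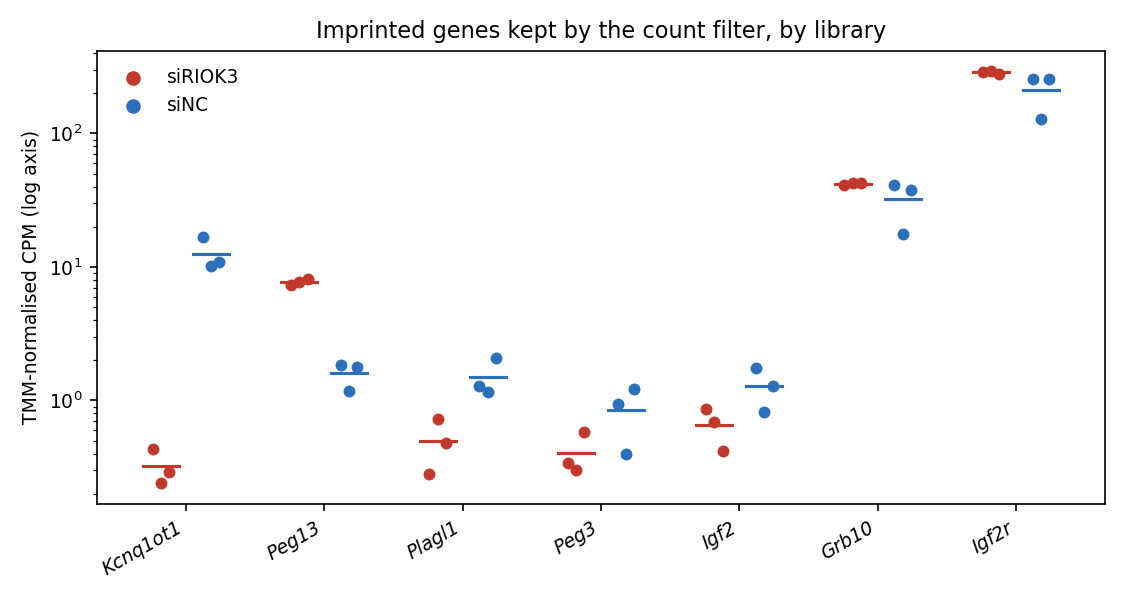
TMM-normalised CPM (log axis) of the 7 imprinted genes kept by the count filter, siRIOK3 left of siNC, with a point per library and a line at the mean of 3. Kcnq1ot1 reached at most 0.435 CPM in siRIOK3 and at least 10.1 CPM in siNC, and Peg13 reached at least 7.27 CPM in siRIOK3 and at most 1.85 CPM in siNC.

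Genes of the domain around Kcnq1ot1, some of which it silences in cis mainly in mouse placenta, were in part higher in siRIOK3. Whether these differences are linked to the lower Kcnq1ot1 level was not tested, and the counts do not separate the parental alleles. Cdkn1c, which encodes the cyclin-dependent kinase inhibitor p57, had 9.36, 11.4 and 10.1 CPM in siRIOK3 against 3.52, 4.85 and 3.13 CPM in siNC. It rose by a log2 fold change of 1.42 (SE 0.203, adjusted p = 0.00142), and by 0.80 with the GC trend removed. Cd81, a tetraspanin of the plasma membrane, averaged 48.8 ± 1.83 CPM in siRIOK3 and 28.6 ± 1.87 CPM in siNC (SD, n = 3 each). It rose by 0.77 on the log2 scale (SE 0.122, adjusted p = 0.00207), and by 0.53 with the GC trend removed. With the trends on GC, adenine and length removed Cd81 was at 0.41 and still called. Tssc4, a gene of the same domain, averaged 44.7 ± 2.89 CPM in siRIOK3 and 23.9 ± 4.07 CPM in siNC, a log2 fold change of 0.90 (SE 0.158, adjusted p = 0.00334). Tssc4 was at 0.27 and was not called once the GC trend alone was removed, and it was called at 0.36 both with the trends on GC and length and with those on GC, adenine and length removed. Phlda2, a maternally expressed regulator of placental growth, had 7, 6 and 7 counts in siRIOK3 and 4, 2 and 2 counts in siNC and did not enter the fit. Slc22a18, a transporter gene of the domain, had 0, 3 and 4 counts in siRIOK3 and 0 in each siNC library, and Tspan32 had 1, 0 and 3 counts in siRIOK3 and 0 in each siNC library.

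Peg13 was higher in siRIOK3. This paternally expressed noncoding RNA (ENSMUSG00000106847.2, chromosome 15) comes from within an intron of Trappc9, on the same strand, and is known mainly from brain. It had 234, 256 and 251 counts in siRIOK3 libraries 1, 2 and 3, against 55, 33 and 53 counts in siNC libraries 1, 2 and 3. Its level was 7.27, 7.69 and 8.08 CPM in siRIOK3 and 1.85, 1.19 and 1.79 CPM in siNC, with no overlap between the groups and siNC 2 the lowest library. Its log2 fold change was 2.25 (SE 0.210), which is 4.77-fold higher in siRIOK3. It was 2.10 (SE 0.185) with the GC trend removed, 1.78 (SE 0.152) with the trends on GC, adenine and length removed, and 2.08 (SE 0.171) without siNC 2. The decile of genes with similar GC content (51.6% for the Peg13 transcript) had a median of 0.19.

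Trappc9, the gene around Peg13, encodes a subunit of the TRAPP trafficking complex. It averaged 55.9 ± 1.14 CPM in siRIOK3 and 27.9 ± 4.36 CPM in siNC (SD, n = 3 each), and it rose 2-fold (log2 SE 0.149, adjusted p = 0.00168). After removal of the GC trend alone Trappc9 was at 0.43 and was not called, and it was called at 0.32 with the trends on GC and length and at 0.30 with those on GC, adenine and length removed. Peg13 had 0.128, 0.136 and 0.148 counts per Trappc9 count in siRIOK3, against 0.0649, 0.0508 and 0.0557 in siNC. The ratio was higher in each siRIOK3 library than in any siNC library, so the Peg13 counts differed by a larger factor than those of Trappc9. Reads of unspliced Trappc9 RNA could be counted for either gene, and their number was not measured.

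Chrac1 and Ago2, also of the Peg13 domain, were not called without correction. Chrac1, a histone-fold protein of a chromatin remodelling complex, had 94.9, 102 and 98.0 CPM in siRIOK3 and 57.9, 98.6 and 64.3 CPM in siNC. Its log2 fold change of 0.42 did not pass (SE 0.210, adjusted p = 0.141). Without siNC 2, its highest siNC library, Chrac1 was called at 0.69, and it was called at 0.44 with the trends on GC, adenine and length removed. Ago2, the slicing Argonaute protein of RNA interference, was at 0.14 (SE 0.256, adjusted p = 0.687), and at -0.12 without siNC 2. Ago2 was called at 0.67 with the trends on GC and length removed, and it was at 0.12 and not called when adenine was added. Kcnk9, the maternally expressed potassium channel gene of the domain, had 1, 0 and 0 counts in siRIOK3 and 0, 4 and 0 counts in siNC.

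**Figure D2:**
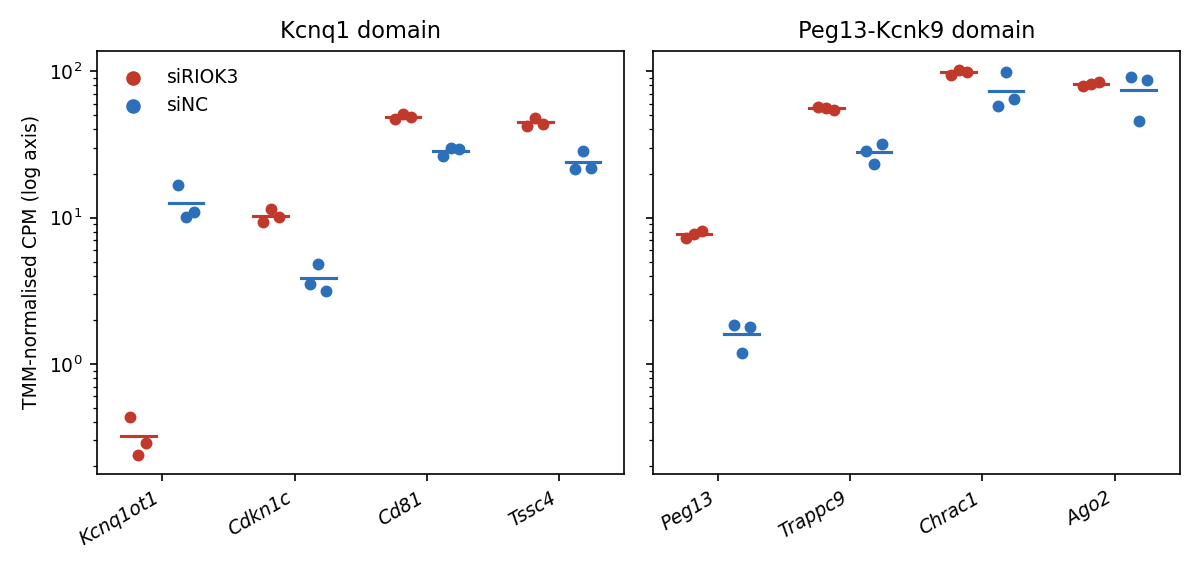
TMM-normalised CPM (log axis) of Kcnq1ot1 and Peg13 beside tested genes of their imprinted domains, siRIOK3 left of siNC, with a point per library and a line at the mean of 3. Kcnq1ot1 lay lower and Cdkn1c, Cd81 and Tssc4 higher in siRIOK3, and Peg13 and Trappc9 both lay higher, while Chrac1 and Ago2 overlapped between the groups.

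H19, the maternally expressed noncoding RNA next to Igf2 (ENSMUSG00000000031.17, chromosome 7), was near the limit of detection. It had 1, 1 and 2 counts in siRIOK3 and 0 in each siNC library. A count of 0 allows up to 3 counts, which is a level of 0.101 to 0.108 CPM in the siNC libraries and covers counting error only. No fold is given for H19.

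Igf2, the fetal insulin-like growth factor expressed from the paternal copy (ENSMUSG00000048583.17, chromosome 7), was low in both groups. It had 28, 23 and 13 counts in siRIOK3 libraries 1, 2 and 3, against 52, 23 and 38 counts in siNC libraries 1, 2 and 3. Its level was 0.870, 0.691 and 0.419 CPM in siRIOK3 and 1.75, 0.827 and 1.28 CPM in siNC, and siNC 2 lay within the siRIOK3 range. Its log2 fold change was -0.96 (SE 0.393). It was -1.45 (SE 0.394) with the GC trend removed, -1.60 (SE 0.346) with the trends on GC, adenine and length removed, and -1.19 (SE 0.358) without siNC 2. The transcript used for Igf2 is rich in GC (55.8%), and the decile of genes with similar GC content had a median of 0.43. Igf2 overlaps Gm49394 on the same strand and Igf2os on the opposite strand, so some reads could be counted for either.

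Igf2r had the highest level of the 9 genes. It encodes the cation-independent mannose 6-phosphate receptor, which takes IGF2 into lysosomes, and in the mouse it is expressed from the maternal copy (ENSMUSG00000023830.15, chromosome 17). It had 290, 292 and 281 CPM in siRIOK3 and 255, 129 and 254 CPM in siNC. All siRIOK3 libraries lay above all siNC libraries, and siNC 2 was far below the other siNC libraries. The log2 fold change was 0.43 (SE 0.257) with siNC 2 and 0.18 (SE 0.059) without it. It was 0.32 (SE 0.231) with the GC trend removed, and 0.09 (SE 0.048) with siNC 2 left out as well. With the trends on GC, adenine and length removed Igf2r was at 0.33 (SE 0.092). Airn, the paternal antisense RNA that represses Igf2r in cis in the mouse, averaged 1.83 ± 0.316 CPM in siRIOK3 and 1.79 ± 0.655 CPM in siNC (SD, n = 3 each). Its log2 fold change of 0.03 did not pass (SE 0.307, adjusted p = 0.944). Airn was at 0.53 with the GC trend removed and at 0.80 with the trends on GC, adenine and length removed, without a call in either. It was called at 0.97 with the GC trend removed and siNC 2 left out. Airn overlaps Igf2r on the opposite strand, and no source used here gives the strand setting of the counting. Some Airn counts could therefore be reads of the far more abundant Igf2r, and their number was not measured.

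Grb10, an adaptor that dampens signalling from the insulin and IGF1 receptors, is maternally expressed outside the nervous system (ENSMUSG00000020176.18, chromosome 11). It had 41.2, 42.6 and 42.2 CPM in siRIOK3 and 41.1, 17.5 and 37.4 CPM in siNC. The lowest siRIOK3 library lay just above the highest siNC library, and siNC 2 was again the lowest. The log2 fold change was 0.39 (SE 0.297) with siNC 2 and 0.10 (SE 0.074) without it, and 0.62 (SE 0.251) with the GC trend removed. With the trends on GC, adenine and length removed Grb10 was at 0.47 (SE 0.1775).

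Plagl1, a zinc finger transcription factor that is paternally expressed and regulates other imprinted genes in the mouse (ENSMUSG00000019817.19, chromosome 10), was low and lower in siRIOK3. It had 9, 24 and 15 counts in siRIOK3, against 38, 32 and 62 counts in siNC. Its level was 0.280, 0.721 and 0.483 CPM in siRIOK3 and 1.28, 1.15 and 2.09 CPM in siNC, and the groups did not overlap. Its log2 fold change was -1.60 (SE 0.416), which is 3.02-fold lower in siRIOK3. It was -1.05 (SE 0.403) with the GC trend removed, -1.57 (SE 0.386) with the trends on GC, adenine and length removed, and -1.75 (SE 0.396) without siNC 2.

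Peg3, a paternally expressed zinc finger protein (ENSMUSG00000002265.18, chromosome 7), had 11, 10 and 18 counts in siRIOK3, against 28, 11 and 36 counts in siNC. Its level was 0.342, 0.30 and 0.580 CPM in siRIOK3 and 0.940, 0.395 and 1.21 CPM in siNC, and siNC 2 lay within the siRIOK3 range. The log2 fold change was -1.06 (SE 0.488), -0.58 (SE 0.445) with the GC trend removed and 0.27 (SE 0.375) with the trends on GC, adenine and length removed. The sign of Peg3 therefore turned with the correction. Mest, a paternally expressed hydrolase of mesodermal tissue (ENSMUSG00000051855.16, chromosome 6), had 1, 0 and 0 counts in siRIOK3 and 0 in each siNC library, and no fold is given for it. Copg2, a coat protein gene that overlaps Mest on the opposite strand, was at 0.18 (SE 0.149, adjusted p = 0.346). Copg2 was called at 1.15 once the GC trend was removed.

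**Figure D3:**
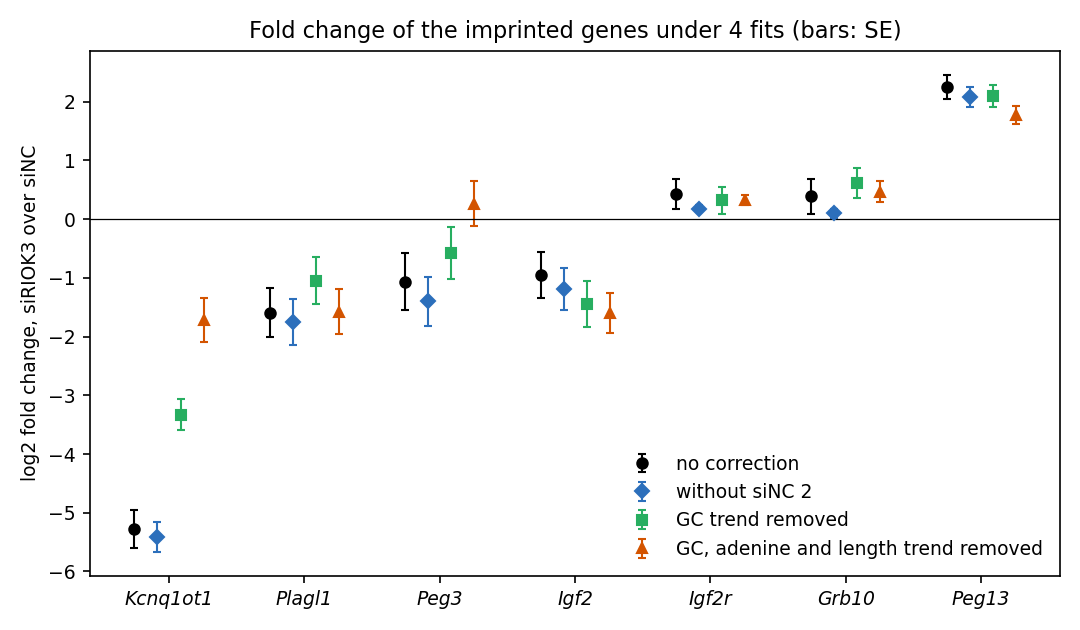
Log2 fold change of siRIOK3 over siNC, with its SE, for the 7 imprinted genes under 4 fits: no correction, without siNC 2, GC trend removed, and GC, adenine and length trends removed. Kcnq1ot1 ranged from -5.41 to -1.72 and Peg13 from 1.78 to 2.25 over these fits, and Peg3 turned from -1.06 without correction to 0.27 in the last of them.

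Per unit of transcript length, the 9 genes spanned a wide range in both groups. In the authors' FPKM, Igf2r was highest with 32.9 ± 0.540 FPKM in siRIOK3 and 20.2 ± 7.12 FPKM in siNC (SD, n = 3 each). Grb10 came next with 4.93 ± 0.116 FPKM in siRIOK3 and 3.12 ± 1.26 FPKM in siNC. Peg13 followed with 1.63, 1.74 and 1.84 FPKM in siRIOK3 and 0.34, 0.22 and 0.34 FPKM in siNC. Kcnq1ot1 was listed at 0.00 FPKM in each siRIOK3 library and at 0.16, 0.09 and 0.11 FPKM in siNC libraries 1, 2 and 3. Igf2, Plagl1 and Peg3 lay between 0.02 and 0.16 FPKM in siRIOK3 and between 0.03 and 0.27 FPKM in siNC. In siRIOK3, Igf2r, Grb10 and Peg13 were each separate from the next gene in order, and from Igf2 down each neighbour overlapped the next. In siNC, Igf2r and Grb10 were separate from the next gene, whereas Peg13, Igf2, Plagl1 and Kcnq1ot1 each overlapped the next of these in order, and Peg3 lay below them. The values are rounded to 2 decimals, and no source used here gives the gene lengths behind them.

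Of the 7 genes in the fit, 3 had a log2 fold change above 0 and 4 below it, with a median of -0.96 beside 0.01 for all tested genes. The median was -0.58 with the GC trend removed, and with the trends on GC, adenine and length removed it was 0.27, with 4 genes above 0 and 3 below. In the fit over all genes the calls were Peg13 higher and Kcnq1ot1 and Plagl1 lower, 3 of 7 genes beside 48% of all tested genes. With the GC trend removed Peg13 was higher and Kcnq1ot1 and Igf2 lower, again 3 of 7 beside 31.6% of all tested genes. With the trends on GC, adenine and length removed the calls were 2 higher, beside 18.5%, and 3 lower, beside 15.9%, which is 5 of 7 beside 34.4% either way, and without siNC 2 they were 6 of 7 beside 71.6%. The groups did not overlap in CPM for 5 of the 7 genes, against 62.1% of all tested genes: Peg13, Igf2r and Grb10 lay above (30.8% of all tested genes did) and Kcnq1ot1 and Plagl1 below (31.3% did). The genes were selected on these values, so nothing is read from these shares. The paternally expressed genes in the fit, Kcnq1ot1, Peg13, Igf2, Peg3 and Plagl1, had log2 fold changes above 0 in 1 and below 0 in 4. Of these, Peg3 turned to 0.27 with the trends on GC, adenine and length removed. The maternally expressed genes, Igf2r and Grb10, were both above 0, at 0.18 and 0.10 without siNC 2. Nothing is read from this split either, since it comes from the same selected values.

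**Figure D4:**
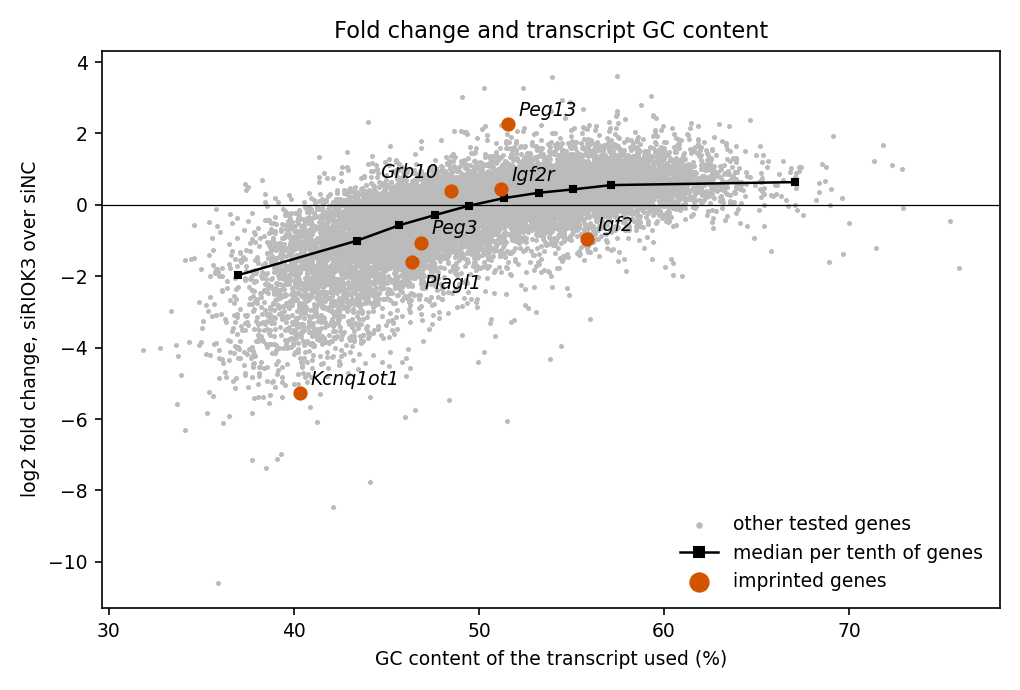
Log2 fold change of siRIOK3 over siNC against the GC content (%) of the transcript used, for the tested genes (grey), with the median per decile of GC content (squares) and the 7 imprinted genes in orange. Kcnq1ot1 and Igf2 lay below the trend, at -5.28 and -0.96 beside medians of -1.97 and 0.43, and Peg13 lay above it, at 2.25 beside 0.19.

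Other imprinted genes were taken from a list of 64, of which 45 were in the table and 33 in the fit. Of these 33, 9 rose and 9 fell, against 21.1% higher and 26.8% lower over all tested genes, with a median of 0.14 beside 0.01. Of the 33, 14 were paternally expressed, with 3 higher and 5 lower, and 18 maternally expressed, with 6 higher and 4 lower. With the GC trend removed these counts were 2 and 1, and 3 and 4, beside 16.3% and 15.2% of all tested genes. In the domains of the 10 genes, 9 entered the fit, of which 5 rose (Cdkn1c, Cd81, Tssc4, Trappc9 and Dlk1) and 0 fell, the lowest being Airn at 0.03, with a median of 0.77. With the GC trend removed 4 of these 9 were called higher (Cdkn1c, Cd81, Dlk1 and Copg2), beside 16.3% of all tested genes, and 0 lower. Dlk1, the paternally expressed Notch-like protein of the Meg3 domain that restrains fat cell formation, averaged 28.3 ± 0.590 CPM in siRIOK3 and 14.6 ± 2.99 CPM in siNC (SD, n = 3 each). It rose by a log2 fold change of 0.96 (SE 0.172, adjusted p = 0.00379), and it was at 0.39 and not called with the trends on GC, adenine and length removed. Rian and Mirg, maternal noncoding RNAs of the same domain, had at most 1 count in any siRIOK3 library and at most 5 in any siNC library.

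Imprinted genes outside these domains numbered 24 in the fit, of which 4 rose and 9 fell, against 21.1% higher and 26.8% lower over all tested genes, with a median of -0.24. With the GC trend removed 1 was called higher and 6 lower, beside 16.3% and 15.2%. Ube3a, a ubiquitin ligase that is maternally expressed in neurons, averaged 5.39 ± 0.0964 CPM in siRIOK3 and 86.5 ± 15.0 CPM in siNC (SD, n = 3 each). It fell 16-fold (log2 SE 0.176, adjusted p = 2.19e-05), and by 1.28 with the GC trend removed. Dcn, the matrix proteoglycan decorin, which is imprinted in mouse placenta, had 0.777, 0.601 and 0.290 CPM in siRIOK3 and 4.57, 3.88 and 4.99 CPM in siNC, and it fell 7.98-fold (log2 SE 0.333, adjusted p = 0.000505). Dcn was at -1.58 with the GC trend removed. Impact, a regulator of translation, averaged 40.5 ± 1.66 CPM in siRIOK3 and 98.7 ± 32.8 CPM in siNC, and it fell by 1.29 (SE 0.257, adjusted p = 0.00594). After removal of the GC trend Impact was at 0.24 and not called. Bcl2l1, the survival factor BCL-XL, averaged 58.5 ± 2.25 CPM in siRIOK3 and 90.3 ± 9.82 CPM in siNC, and it fell by 0.63 (SE 0.131, adjusted p = 0.00682). It was at -1.11 with the GC trend removed and, not called, at -0.38 with library totals alone. Whether the genes in the domains differ from those outside them was not tested.

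Proteins that set, keep or read imprints were taken from a list of 26 genes, of which 24 entered the fit. Of these, 3 rose and 11 fell, against 21.1% higher and 26.8% lower over all tested genes, with a median of -0.46 beside 0.01. With the GC trend removed 3 were called higher and 9 lower, beside 16.3% and 15.2% of all tested genes, and without siNC 2 the counts were 3 higher and 19 lower, beside 35.1% and 36.5%. Zfp57 had 62.8, 60.2 and 57.9 CPM in siRIOK3, against 175, 128 and 163 CPM in siNC. It fell by 1.36 on the log2 scale (SE 0.152, adjusted p = 0.000485), and by 0.71 with the GC trend removed. Zfp445 had 6.19, 5.47 and 6.70 CPM in siRIOK3, against 80.0, 29.9 and 71.1 CPM in siNC, and it fell by 3.30 (SE 0.375, adjusted p = 0.000551). Zfp445 was at -2.06 with the GC trend removed. Hells, a chromatin remodeller needed for DNA methylation, averaged 15.6 ± 0.0727 CPM in siRIOK3 and 261 ± 118 CPM in siNC (SD, n = 3 each), and it fell by 4.06 (SE 0.385, adjusted p = 0.00026). Smchd1, a chromatin protein of the inactive X chromosome and of imprinted clusters, averaged 14.9 ± 0.942 CPM in siRIOK3 and 96.0 ± 30.2 CPM in siNC, and it fell by 2.68 (SE 0.257, adjusted p = 0.000271). Hells was at -1.46 and Smchd1 at -1.19 with the GC trend removed, and both were still called. With the trends on GC, adenine and length removed Zfp57 was at -0.36 and Smchd1 at -0.43, much nearer to no change. In that fit Zfp445 was at -1.63 and Hells at -1.86, and each of these genes was still called.

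The genes of the DNA methylation machinery were Dnmt1, Dnmt3a, Dnmt3b, Dnmt3l and Uhrf1. Of these 5, 1 was called higher (Dnmt3l) and 0 lower, beside 21.1% and 26.8% of all tested genes. Dnmt1, which copies methylation at replication, averaged 109 CPM in siRIOK3 and 107 CPM in siNC, a log2 fold change of 0.03 (SE 0.427, adjusted p = 0.96). With so wide an SE, this does not show that Dnmt1 was unchanged. Dnmt3a, Dnmt3b and Uhrf1 also did not pass, and Dnmt3l, the cofactor of methylation in germ cells, rose by 2.24 on the log2 scale, with a mean of 0.987 CPM in siRIOK3 and 0.205 CPM in siNC. The siNC level of Dnmt3l was low, as 3 counts make 0.101 to 0.108 CPM there, so the size of its fold is uncertain. Without siNC 2 the count among these 5 genes was 1 higher and 2 lower, beside 35.1% and 36.5% of all tested genes. Of the 7 genes whose products act with Kcnq1ot1 or Airn in silencing, 1 rose and 4 fell, against 21.1% higher and 26.8% lower over all tested genes. These counts were 2 higher and 2 lower with the GC trend removed, beside 16.3% and 15.2%, and 1 and 1 with the trends on GC, adenine and length removed, beside 18.5% and 15.9%. The falls included the Polycomb genes Suz12, at -3.16, Ezh2, at -1.30, and Eed, at -0.88, and Rnf2, at -1.26. After removal of the GC trend Suz12 was at -1.49, Ezh2 at -0.34 without a call, Eed at -0.54 and Rnf2 at 0.89, called higher. Trim28, the partner of ZFP57, and Ehmt2, a histone H3 methyltransferase, rose by 0.53 and 0.63 without correction. They were at -0.11 and -0.06 and not called with the GC trend removed. The genes of this paragraph were named after their values were seen.

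**Figure D5:**
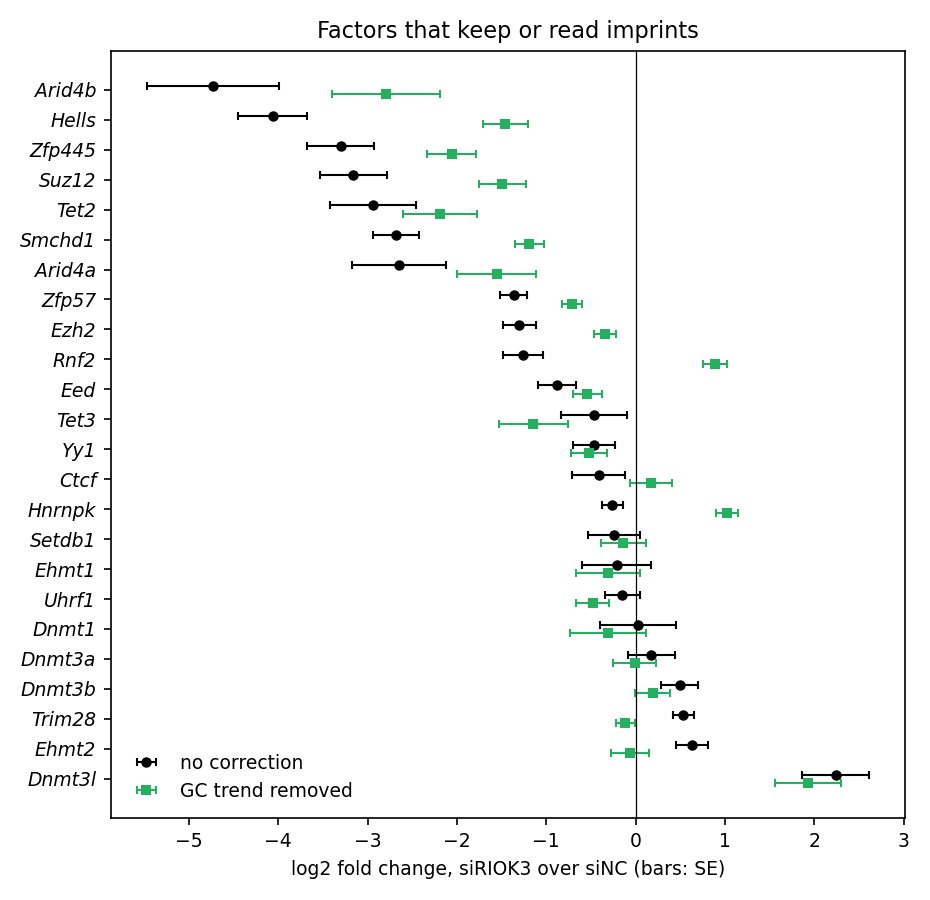
Log2 fold change of siRIOK3 over siNC, with its SE, for the 24 tested genes that set, keep or read imprints, without correction (black) and with the GC trend removed (green). Zfp445, Hells, Smchd1 and Zfp57 lay below 0 in both fits, and Rnf2 changed sign between them, at -1.26 and 0.89.

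The other genes of the insulin-like growth factor axis, a list of 18 with 15 in the fit, moved in both directions. Of these 3 rose and 7 fell, against 21.1% higher and 26.8% lower over all tested genes, with a median of -0.58 beside 0.01. After removal of the GC trend 2 were called higher and 7 lower, beside 16.3% and 15.2%. Igf1, the other ligand, had 9, 10 and 17 counts in siRIOK3 and 8, 7 and 5 counts in siNC and did not enter the fit. Among the receptors, Insr, the insulin receptor, averaged 19.8 ± 1.11 CPM in siRIOK3 and 37.5 ± 3.88 CPM in siNC (SD, n = 3 each). Insr fell by 0.92 (SE 0.136, adjusted p = 0.00153), by 0.45 with the GC trend removed, and was at -0.23 and not called with the trends on GC and length removed. Igf1r, the receptor that signals for IGF1 and IGF2, averaged 32.0 CPM in siRIOK3 and 41.0 CPM in siNC, and its log2 fold change of -0.36 did not pass (SE 0.189, adjusted p = 0.16).

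The binding proteins and their proteases, which set how much ligand is free, held 3 of the 4 genes with the smallest p of this axis. Igfbp3, the main carrier of IGFs in serum, had 3.89, 4.84 and 3.83 CPM in siRIOK3, against 29.1, 34.5 and 23.5 CPM in siNC. It fell by 2.79 (SE 0.198, adjusted p = 8.21e-05), and by 3.05 with the GC trend removed. Igfbp4, a carrier that is abundant in bone cells, had 435, 435 and 399 CPM in siRIOK3, against 132, 188 and 149 CPM in siNC. It rose by 1.44 (SE 0.160, adjusted p = 0.00051), and by 0.70 with the trends on GC, adenine and length removed. Pappa, the protease that cleaves IGFBP4, averaged 3.37 ± 0.528 CPM in siRIOK3 and 10.6 ± 2.63 CPM in siNC (SD, n = 3 each), and it fell by 1.65 (SE 0.235, adjusted p = 0.00143). Pappa was at -1.03 and still called with the GC trend removed.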

How the data were processed

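Messenger RNA of 3 siRIOK3 and 3 siNC mBMSC libraries was sequenced from 2 μg of total RNA with a stranded kit as paired reads of 150 bases, per the labels' protocols. The submitters' processing notes name HISAT2, MultiQC and the build GRCm39. No source used here gives the counting tool, its strand setting or the annotation. Raw counts per gene, deposited by the authors, were used for the main tests. The authors' FPKM values, scaled by length and library total and rounded by them, served for levels per length and for alternatives.

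Counts were filtered with filterByExpr (minimum count 10), scaled by TMM and tested with edgeR 4.0.16 (R 4.3.3, glmQLFit robust, glmQLFTest, two-sided), with Benjamini-Hochberg adjustment over 13067 genes and calls at an adjusted p under 0.05. A log2 fold change is siRIOK3 over siNC, and its SE was derived from the F statistic of that test (absolute log2 fold change over the root of F). Composition offsets were loess trends (span 0.3) on GC content, also with length and adenine share. Each trend was fitted to the deviation of a library's log2 CPM from the gene's mean over the libraries. Composition was that of a single GENCODE M21 (GRCm38) transcript per gene, the one with the longest coding part, for 13043 (99.8%) of the tested genes. The 22 alternatives included DESeq2 1.42.0, limma 3.58.1 (voom, and limma-trend on log2(FPKM + 1) and log2(FPKM + 0.1)), other scalings and filters, the replicate block and each library left out. The scripts were tested on simulated data. Replicate numbers come from the titles, and nothing else pairs the libraries.

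The genes and lists were chosen with earlier results of these data known. Named were the 10 genes, the tested imprinted genes of their domains, up to 4 genes with the smallest p of each other list, and Riok3. No resampling over genes and no test over a list was run.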

Additional observations from a re-analysis of the deposited data

How the results depend on the processing

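Depth limits H19 and Mest most, followed by Peg3, Igf2 and Plagl1, which had 9 to 62 counts per library, so their values carry wide errors. Kcnq1ot1 had similarly few counts in siRIOK3, though not in siNC, so the size of its fold is limited by depth as well. Library siNC 2 sets much of the siNC spread of Igf2r and Grb10. Over 22 alternatives the 7 imprinted genes gave 123 values within the SD of the replicates, 19 beyond it in the same direction, and 1 of opposite sign, that of Peg3 (0.27 with the offset for GC, adenine and length). Of the other named genes, 433 values kept their direction and their call, 19 gained a call and 15 lost it. Another 5 turned sign with no call in either fit, and 4 turned sign and lost the call of the main fit. All 4 were of Impact, at 0.24 with the GC offset, 0.24 with GC and length, 0.081 with the GC offset and siNC 2 left out, and 0.26 with the GC offset and replicate block.

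Other imprinted genes higher numbered 9, beside 2758 of 13067 over all tested genes. They numbered 5 with the GC offset (beside 2130 of 13043) and 14 with siNC 2 also left out (beside 4500 of 13372). With the GC offset and replicate block they numbered 4 (beside 1562 of 13043). Leaving out each library in turn gave 6 to 12, the highest without siNC 2 (beside 4701 of 13398). Those lower numbered 9, beside 3508 of 13067 over all tested genes. They numbered 5 with library totals (beside 2814 of 13067) and 5 with a filter of 5 CPM (22 tested, beside 2723 of 9372). With GC, adenine and length they numbered 5 (beside 2075 of 13043), as with the GC offset and replicate block (beside 1539 of 13043). They numbered 2 with log2(FPKM + 1) and log2(FPKM + 0.1) (23 tested, beside 1993 and 1992 of 9804). With FPKM unfiltered they numbered 3 (43 tested, beside 2518 of 21879). Imprint factors lower numbered 11, beside 3508 of 13067 over all tested genes. They numbered 19 with limma-voom (beside 4804 of 13067) and 18 with the GC offset and siNC 2 left out (beside 3729 of 13372). Leaving out each library in turn gave 10 to 19, the highest without siNC 2 (beside 4891 of 13398). IGF axis genes lower numbered 7, beside the same 3508 of 13067. They numbered 3 with log2(FPKM + 1) and log2(FPKM + 0.1) (9 tested, beside 1993 and 1992 of 9804). With FPKM unfiltered they numbered 4 (17 tested, beside 2518 of 21879). The cause was not tested.

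For libraries that share a replicate number, deviations from the group means correlated at -0.076, 0.044 and 0.052 for numbers 1, 2 and 3. Of the siRIOK3 libraries, siRIOK3 3 correlated best with siNC 1. With 3 libraries per group and siNC 2 apart from the other siNC libraries, these values cannot decide whether the numbers pair the libraries. With the number as a replicate block 5615 genes were called, against 6266 without it. Under the replicate block other imprinted genes gave 8 higher and 8 lower, imprint factors 3 and 11, and IGF axis genes 2 and 7. Over all 13067 tested genes that fit called 2390 higher and 3225 lower. Kcnq1ot1 was at -5.28 and Peg13 at 2.27 under the replicate block.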

Other observations

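Among imprinted genes that the text has not described, Ndn and Mkrn3, paternally expressed neighbours of the Prader-Willi region on mouse chromosome 7, rose, and Snrpn and Peg12 of the same region did not pass. Ndn averaged 5.05 ± 0.691 CPM in siRIOK3 and 2.51 ± 0.704 CPM in siNC (SD, n = 3 each), a log2 fold change of 1.01 (SE 0.244, adjusted p = 0.0131), and it was at 1.88 and still called with the GC trend removed. Mkrn3 averaged 0.851 CPM in siRIOK3 and 0.472 CPM in siNC, and it was not called with the GC trend removed. Peg10, a gene derived from a retrotransposon, was at 0.07 (SE 0.261, adjusted p = 0.84), and Sgce, its neighbour, which encodes a sarcoglycan, was at -0.13 (SE 0.155, adjusted p = 0.51). Gnas, the locus of the stimulatory G protein alpha subunit, had 587 CPM in siRIOK3 and 574 CPM in siNC, a log2 fold change of 0.03 that did not pass. These genes were named after their values were seen.

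Igfbp5, a binding protein of bone matrix, averaged 1.47 CPM in siRIOK3 and 0.147 CPM in siNC, a log2 fold change of 3.28 (SE 0.505, adjusted p = 0.002), and it was at 3.26 with the GC trend removed. In the siNC libraries 3 counts make 0.101 to 0.108 CPM. The siNC mean of Igfbp5 was close to that level, so the size of its fold is uncertain. Grb14, an adaptor related to Grb10, averaged 20.1 CPM in siRIOK3 and 47.4 CPM in siNC and fell by 1.24 (SE 0.250, adjusted p = 0.0062), and it was at -1.27 with the GC trend removed. Both were named after their values were seen.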
